A study of Mus musculus with 5 samples.

Results

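Ribosomal protein genes encode the proteins that, together with ribosomal RNA, form the small and the large subunit of the cytosolic ribosome. They were taken by symbol: names of the Rpl and Rps series with a number and at most a short suffix, together with Rpsa, Rplp0, Rplp1 and Rplp2. The symbol rule found 89 of the 55357 genes in the deposited matrices, and 84 of these held at least 500 UMIs (unique molecular identifiers, 1 per captured transcript) over the 5 libraries. These 84 genes, 51 of the large and 33 of the small subunit, are described here. By annotation 82 are protein coding, Rpl6l is a processed pseudogene and Rps4l is a transcribed processed pseudogene. They lie on 19 chromosomes, with 14 of them on chromosome 7.

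The libraries come from tibialis anterior, a hind-limb muscle, of female C57BL/6 mice aged 26 months, and all groups share that strain, sex and age. The frail group holds 2 mice with a frailty index, a score over health deficits, of 0.18 or more, and the control group holds 3 mice under 0.18. No treatment or genotype is named in the labels. RNA was captured in droplets with 10x Genomics 3′ chemistry. The labels describe both a digested suspension of whole cells and a preparation of lysed, sorted nuclei, and which of them gave these libraries is not known here, so barcodes are called cells. Values are listed in the order frail 1, frail 2, control 1, control 2 and control 3 throughout.

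After filtering, 48397 cells remained, between 8351 and 11504 per library, with 62382557 to 81534289 UMIs per library and a median of 5202 to 6846 UMIs per cell. Of 48163 distinct retained barcode sequences, 232 occurred in more than 1 library. Control 3 stood apart in keratinocyte transcripts, with 2020.2 CPM for 5 keratin genes against 11.6 to 15.7 in the other libraries. CPM stands for the UMIs of a gene or list scaled to 1000000 UMIs of the same sum. The frail libraries held little myofibre RNA: 12 genes of the contractile fibre gave 126 and 835 CPM in frail mice and 7313, 14530 and 3569 in controls.

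Ribosomal proteins are made in near-equal amounts, since each ribosome holds 1 copy of most of them. Many of their messenger RNAs begin with a run of pyrimidines, the 5′ terminal oligopyrimidine or TOP tract, through which the growth-regulating kinase complex mTORC1 and the RNA-binding protein Larp1 control their translation. In muscle, satellite cells (the resident stem cells) are known to keep a small cytoplasm, and the paralog Rpl3l is known as the form of Rpl3 found in striated muscle fibres.

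The tract is visible in the genome at many, though not all, of the annotated starts. The following windows of 30 bases, 15 before and 15 from the start onward, are read on the transcribed strand 5′ to 3′, with the tract in capitals. Where several runs met the definition of a tract given after the windows, the one that begins nearest the start is marked, so other runs of C and T stay in lower case. The first 4 genes have a marked tract of 8 bases or more, and the others are among the paralogs and partners whose levels are compared.
Rpl15: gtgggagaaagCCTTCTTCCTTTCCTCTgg
Rpl27a: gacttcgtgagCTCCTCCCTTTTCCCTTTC
Rps24: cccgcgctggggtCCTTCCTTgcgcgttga
Rps27: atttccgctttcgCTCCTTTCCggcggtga
Rps27l: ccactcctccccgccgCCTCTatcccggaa
Rpl22: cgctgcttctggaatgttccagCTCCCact
Rpl22l1: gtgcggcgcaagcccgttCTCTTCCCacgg
Rpl39: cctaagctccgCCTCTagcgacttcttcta
Rpl39l: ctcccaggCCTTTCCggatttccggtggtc
Rpl3l: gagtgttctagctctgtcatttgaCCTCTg

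These windows come from the RefSeq starts on GRCm38.p6. Rpl15 lies at chr14:18270972-18271001 (minus strand), Rpl27a at chr7:109519180-109519209 (plus), Rps24 at chr14:24490663-24490692 (plus) and Rps27 at chr3:90213634-90213663 (minus). Rps27l lies at chr9:66946071-66946100 (plus), Rpl22 at chr4:152324421-152324450 (plus), Rpl22l1 at chr3:28805493-28805522 (plus), Rpl39 at chrX:37085208-37085237 (minus), Rpl39l at chr16:10170213-10170242 (plus) and Rpl3l at chr17:24727811-24727840 (plus). Several genes have further listed starts that are not shown. The Rpl22 start shown lies before the gene as placed by GENCODE, which begins at chr4:152325742. The other listed Rpl22 start, with the window chr4:152325711-152325740 (plus), has no tract. Nor has the other listed start of Rpl3l.

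A start was listed for 62 of the 84 genes. A tract, here a C followed by at least 4 further C or T with its first base within 20 bases of the start, was present in 49 of the 62 (79.0%), against 52.2% of 27025 genes with a listed start. The tract nearest the start had at least 8 bases, at any listed start, in 28 of them (45.2%), against 12.8% of all. CCGGAAG, the core recognised by ETS factors, occurred on either strand of the 300-base promoter window in 41.9% of the genes and in 9.93% of all. AAGATGG, the core of YY1 sites, occurred in 16.1% against 7.28%, whereas the E-box CACGTG (9.68% against 8.09%) and TATAAA (11.3% against 15.7%) were closer to the share of all genes. The hexamers CTTTCC and CTTTTC, which overlap the tract, occurred around the start in 17.7% against 2.66% and in 8.06% against 1.88%. A match is a description of the letters in the window and not a binding site. The annotated leader before the coding sequence had a median of 96 bases in 82 of the genes, against 168 bases in 12855 protein-coding genes with at least 500 UMIs, and the coding length 454.5 against 1362 bases.

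The number of UMIs per gene spread widely. Each UMI of this 3′ assay stands for 1 transcript end, so the counts were not divided by gene length. Rps29, a small zinc-binding protein of the small subunit, held 3.36% of all ribosomal protein UMIs, and Rplp1, an acidic protein of the stalk that recruits elongation factors, held 2.59%. Rps24 and Rps21 of the small subunit followed with 2.58% and 2.45%, then Rpl37a with 2.30%. At the other end stood Rpl13a (59581 UMIs), Rpl7l1 (19099), Rps4l (17772), Rpl3l (5768), Rpl39l (1994) and Rpl6l (1213). Rpl6l was the gene just inside the limit of 500 UMIs, and just outside it were Rps3a2 (238), Rpl32l (208), Rps3a3 (194), Rps12l1 (20) and Rpl10l (0), of which all but Rpl10l are processed pseudogenes. Many ribosomal protein genes have near-identical processed copies elsewhere in the genome, and how the counting divided reads between them is not given in the sources used here. Counts of Rpl13a, Rpl6l and Rps4l are therefore uncertain.

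To compare lineages, cells were gated on 1 gene each: Cdh5 (endothelial cadherin), Pdgfra (a receptor of fibro-adipogenic cells), Rgs5 (mural cells), C1qa (a complement chain of macrophages), Cd3e (T cells) and Pax7 (satellite cells). A gated cell had at least 2 UMIs of its gene and none of the other 5, which gave 6279, 7218, 2489, 1098, 90 and 350 cells. For each gate 8 further markers of its lineage were summed. They stood at 6279 to 9699 CPM in the Cdh5 gate, 44436 to 54383 in the Pdgfra gate, 8979 to 15606 in the Rgs5 gate, 8922 to 12351 in the C1qa gate, 3651 to 5436 in the Cd3e gate and 3737 to 4142 in the Pax7 gate. In the other 5 gates the same lists reached at most 754, 6087, 3368, 119, 87.4 and 728 CPM, in that order. The gates were not free of other transcripts: in the Rgs5 gate of control 2 the 12 fibre genes (12866 CPM) exceeded the mural markers (12458), and control 3 held 6087 CPM of fibro-adipogenic beside 8979 of mural markers. In the Pax7 gate of control 3 the fibre genes (4061 CPM) exceeded the satellite markers (3737), while the other libraries held 43.5 to 1308 CPM of fibre genes. In the Cdh5 gate of control 2, 5 erythrocyte genes, mostly of haemoglobin, nearly reached the endothelial markers (7670 against 7761 CPM).

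Satellite cells devoted a larger share of their transcripts to ribosomal proteins than endothelial, mural, fibro-adipogenic and macrophage cells did in every library. In the Pax7 gate the 84 genes held 24.6, 27.1, 27.4, 30.3 and 24.1% of UMIs. In the Rgs5 gate they held 6.99, 6.46, 8.99, 9.78 and 10.1%. The Pax7 share was above the Rgs5 share in 5 of 5 libraries, by 2.39 to 4.19 times.

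Endothelial cells were next to mural cells, with 9.82, 8.25, 10.4, 10.7 and 9.08% in the Cdh5 gate, above the Rgs5 gate in 4 of 5 libraries and below it in control 3. Macrophages (12.9, 11.3, 13.2, 12.6 and 11.8%) and fibro-adipogenic cells (12.8, 12.9, 15.5, 16.4 and 12.1%) had overlapping shares. Both lay above the Cdh5 gate in 5 of 5 libraries, by 1.18 to 1.37 times and by 1.30 to 1.56 times. The Pax7 gate exceeded the Pdgfra gate by 1.77 to 2.11 times. Median UMIs per cell were 6056 to 7020 in the Pax7 gate, 7310 to 8667 in the Pdgfra gate, 6002 to 8128 in the C1qa gate, 3387 to 4216 in the Cdh5 gate and 3126 to 4043 in the Rgs5 gate. The 2 gates with the lowest shares were thus also the shallowest, while the Pax7 gate was not deeper than the Pdgfra gate. The part of depth in this order was not tested.

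The Cd3e gate was the least uniform. Its shares were 19.8, 23.0, 31.3, 37.9 and 11.7% in only 8, 19, 4, 10 and 49 cells. In control 1 and control 2 it exceeded the Pax7 gate, and control 3 lay far below the other 4 libraries. Its Cd3e-gated cells held 573 UMIs of Trdc, the constant chain of the gamma-delta T cell receptor, and 399 of Fcer1g, a receptor adaptor, with 0 of Cd8a. The same cells carried 3525 CPM of neutrophil and 3368 of mural markers, against at most 38.4 and 269 in the other 4 libraries. The part of these transcripts in the low share was not tested, and these genes were looked at after the shares were seen.

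**Figure D1:**
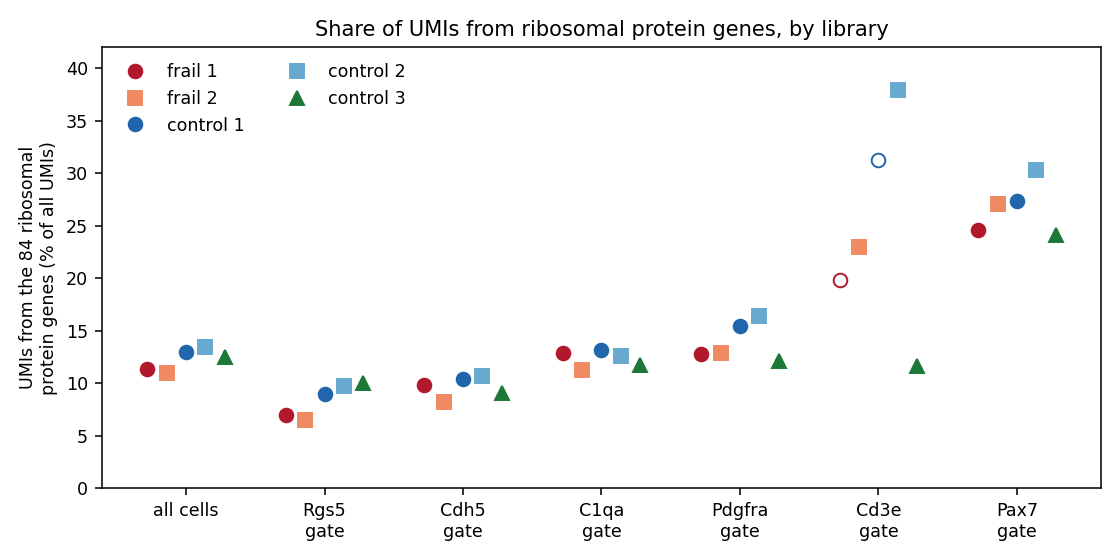
Share of all UMIs (vertical axis, percent) that came from the 84 ribosomal protein genes, for all retained cells and for 6 gates, with 1 symbol per library and open symbols for sums of under 10 cells. The Pax7 gate lies between 24.1 and 30.3%, above the Rgs5, Cdh5, C1qa and Pdgfra gates in every library.

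Gene by gene, the lineages differed in nearly the whole set. In edgeR's quasi-likelihood test on UMI sums per library and gate, with the library in the model, 82 of 84 genes differed between gates at an adjusted p under 0.05. Calls were common everywhere, as 88.3% of the 14123 genes tested passed. The exceptions were Rps27l (edgeR adjusted p = 0.291) and Rpl7l1 (edgeR adjusted p = 0.204), a paralog whose product acts in ribosome assembly. A gene was then called higher or lower in a gate when it also differed from the mean of the other 5 gates by at least 0.5 on the log2 scale. The Cd3e gate entered with the 3 libraries that held at least 10 cells, frail 2, control 2 and control 3.

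In the Pax7 gate 77 of 84 genes were higher, against 14.8% of all genes, and 1, Rps4l, was lower, against 19.0% of all genes, and the median log2 difference was 1.10 (all genes -0.13). The largest rises were those of Rps19, a small-subunit protein needed for subunit maturation (log2 difference 1.55 ± 0.16 SE, edgeR adjusted p = 6.62e-09), Rpl12 of the stalk base (1.54 ± 0.15, edgeR adjusted p = 2.13e-09) and Rpl36a (1.45 ± 0.17, edgeR adjusted p = 8.81e-08). Rps19 stood at 3145, 4167, 3960.2, 3879.9 and 2916 CPM in Pax7-gated cells and at 594, 643, 826, 903 and 995 in Rgs5-gated cells. The ranges of the 2 gates did not overlap.

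In the Rgs5 gate 77 genes were lower, against 9.89% of all genes, with a median of -0.94 (all genes 0.14). Higher were 3 genes (Rps4l, Rpl39l and Rpl3l), against 23.4% of all genes. Fibre transcripts were present in this gate, and their part in the Rpl3l call was not tested. Rps12 fell by 1.27 ± 0.18, Rps4x by 1.19 ± 0.18 and Rpl17, which lines the exit tunnel, by 1.16 ± 0.16 on the log2 scale. Their edgeR adjusted p values were 1.50e-06, 2.92e-06 and 5.38e-07. Rps12 stood at 978, 995, 1564, 1678 and 1846 CPM in the Rgs5 gate and at 2302, 2638, 3509.8, 3427 and 2505 in the Pdgfra gate. The 2 ranges did not overlap.

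In the Cdh5 gate 63 genes were lower (15.5% of all genes) and 1, Rps4l, was higher (22.1% of all genes), with a median of -0.67 (all genes 0.05). Rpsa, a small-subunit protein also known as the laminin receptor precursor, fell by 1.26 ± 0.18 on the log2 scale (edgeR adjusted p = 5.67e-07). Rpl12 and Rpl39 fell by 1.18 ± 0.18 and 1.18 ± 0.20. Rpsa stood at 848, 685, 825, 840 and 771 CPM there and at 3361, 3812, 3423, 3761 and 2808 in the Pax7 gate.

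Macrophages and fibro-adipogenic cells lay closest to the mean of the gates, with median log2 differences of -0.14 (all genes 0.06) and 0.06 (all genes 0.11). With RLE size factors these medians were -0.20 and -0.04, and with total UMIs and no factor -0.33 and -0.03. In the C1qa gate 1 gene was higher and 3 were lower, against 23.8% and 13.6% of all genes. The higher one was Rps29 (log2 difference 0.85 ± 0.12, edgeR adjusted p = 6.94e-07), at 7759, 4924, 6894, 7224 and 7377 CPM against 2797 to 4862 in the Pdgfra gate. Its range overlapped that of the Pax7 gate (4241 to 6690 CPM), which was lower in each library. It also overlapped the Cd3e gate (4545 to 10742 CPM), which was higher in frail 2 and control 2. The lower ones were Rps4l, Rpl22l1 and Rplp0, the scaffold of the stalk. With total UMIs and no factor, which moved the median of all genes in this gate to -0.12, the calls were 1 higher and 14 lower, and without a low-count filter 1 higher and 11 lower. Without control 2 the Rplp0 difference was -0.49 and not called. Without control 3 the Rps4l difference was 0.41. With a gate of at least 1 UMI the Rps29 difference was 0.46 and missed the size limit. In the Pdgfra gate 2 genes (Rps4l and Rpl39l) were higher and 0 lower, against 25.9% and 11.8% of all genes.

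In the Cd3e gate 47 genes were higher and 1, Rps4l, lower, against 10.6% and 11.9% of all genes. The median was 0.59 (all genes -0.35). It was 0.78 with RLE size factors (all genes -0.21) and 0.78 with total UMIs and no factor (all genes -0.14). Without control 2 the median was 0.23, and without control 3 it was 0.96. Rpsa (1.39 ± 0.19), Rpl39 (1.30 ± 0.23) and Rps15a (1.12 ± 0.19) rose most. This count rested on single libraries: 7 genes were called in either direction without control 2, 23 without frail 2 and 71 without control 3. Without control 2 the edgeR adjusted p of Rpl39 was 0.129 and that of Rps15a 0.0505.

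**Figure D2:**
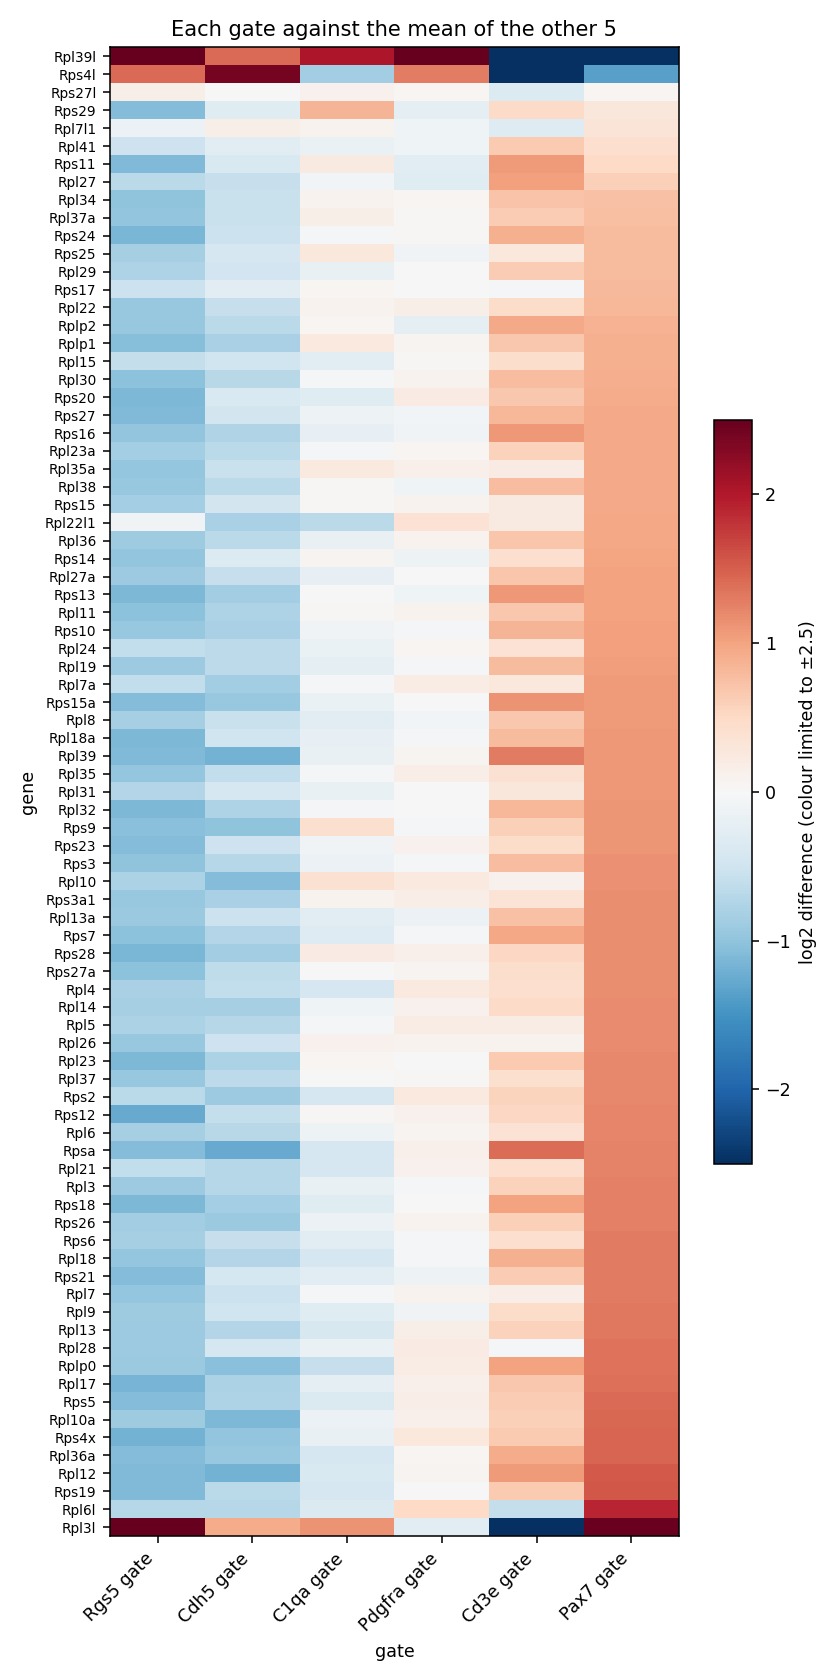
Log2 difference of each gate from the mean of the other 5 (colour) for 83 of the 84 ribosomal protein genes (rows, ordered by the Pax7 gate). Of all 84 genes 82 are above 0 in the Pax7 gate and 80 below 0 in the Rgs5 gate, while Rpl39l, Rps4l and Rpl3l at the edges follow other patterns and, where a gate holds 0 UMIs, reach the end of the colour scale without a measured size.

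Several paralogs did not follow the common order of lineages. Rps4l, the processed copy of Rps4x, was highest in endothelial cells, where the set as a whole was low: 99.5, 64.0, 70.8, 86.9 and 89.1 CPM in the Cdh5 gate against 8.37, 7.35, 17.0, 6.26 and 10.2 in the Pax7 gate. The log2 difference of the Cdh5 gate was 2.39 ± 0.15 (edgeR adjusted p = 1.34e-14). Rps4x itself ran the other way, at 1217 to 1499 in the Cdh5 gate and 4989 to 6321 in the Pax7 gate. Rps4l was also higher in the Rgs5 gate (1.42 ± 0.17) and in the Pdgfra gate (1.27 ± 0.17). When single libraries were left out, the differences ran from 2.32 to 3.74 (Cdh5), 1.19 to 2.87 (Rgs5) and 1.17 to 2.65 (Pdgfra). That of the Cd3e gate ran from -9.61 to -2.45. The Cd3e gate held 2 Rps4l UMIs and is part of the mean for the other gates, so these sizes are uncertain. The lower call of Rps4l in the Pax7 gate (-1.35 ± 0.39) rested on control 3, which held the only Rps4l UMIs of the Cd3e gate, and was -0.06 without that library.

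Rpl39l, known for its expression in the male germ line, was rare but unevenly spread. It stood at 8.47, 4.47, 8.78, 7.57 and 10.7 CPM in the Pdgfra gate and at 8.86, 2.97, 3.38, 4.82 and 8.25 in the Rgs5 gate. No UMI was seen in the Pax7 gate of any library, which allows a pooled level of up to 1.30 CPM (3 counts over the 5 libraries). The pooled Pdgfra level of 8.20 was thus at least 6.29-fold higher. Rpl39l was also at 0 in the Cd3e gate, where the limit of 5.64 CPM is close to the levels elsewhere. Rpl39, its common partner, stood at 5004 to 6934 CPM in the Pax7 gate and at 2626 to 16304 in the Cd3e gate, where control 3 was the lowest.

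Rpl22l1, a paralog of the RNA-binding protein Rpl22, made up 20.6% of the UMIs of the pair in the C1qa gate, 25.9% in the Cd3e gate, 26.2% in the Cdh5 gate, 29.7% in the Pax7 gate, 30.7% in the Pdgfra gate and 38.9% in the Rgs5 gate, pooled over libraries. By library the Rgs5 share was 41.0, 42.7, 43.7, 42.1 and 29.4%, so control 3 was near its Pax7 (29.0%) and Pdgfra (28.9%) values. Like the set, Rpl22l1 was high in the Pax7 gate, at 903, 717, 866, 857 and 730.4 CPM. In the Rgs5 gate it stood at 412, 407, 563, 549 and 386 CPM, below the Pdgfra gate (523, 544, 617, 585 and 457) in 5 of 5 libraries and above the Cdh5 gate (274 to 298) in 5 of 5.

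Rps27l, a target of the tumour suppressor p53, was not called in any gate. It stood at 239, 197, 269, 258 and 224 CPM in the Cdh5 gate and at 246, 241, 215, 250.3 and 252 in the Pax7 gate, and these ranges overlapped. Its share of the pair with Rps27 was 4.74% in the Pax7 gate and 13.8% in the Rgs5 gate. Rpl7l1 was not called either, with 2.87% of the pair in the Pax7 gate and 7.79% in the Rgs5 gate. Rpl36al, a paralog of Rpl36a outside the symbol rule, made up 6.30% of its pair in the Pax7 gate and 17.4% in the Rgs5 gate. Rpl10l, a testis paralog of Rpl10, had no UMI in any library, which allows up to 0.00896 CPM over the 5 libraries.

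**Figure D3:**
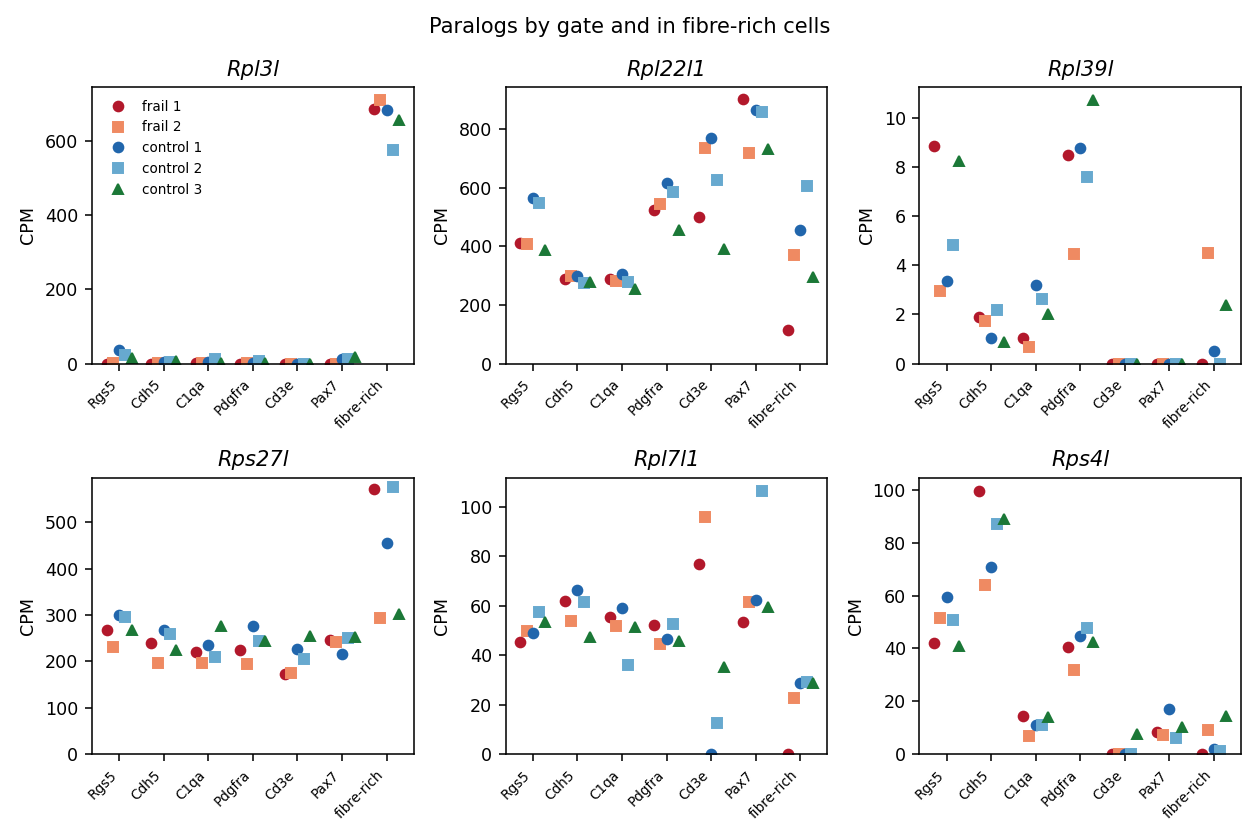
CPM (vertical axes, each from 0) of 6 paralogs in the 6 gates and in fibre-rich cells, 1 symbol per library. Rpl3l is high in fibre-rich cells alone (576 to 709), Rps4l is highest in the Cdh5 gate (64.0 to 99.5), and Rpl39l is at 0 in the Cd3e and Pax7 gates.

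Rpl3l marked the fibre. Cells with at least 5% of their UMIs from the 12 fibre genes, called fibre-rich here, numbered 12, 89, 351, 880 and 336. Rpl3l stood at 686, 709, 682, 576 and 655 CPM in them, and at 0.362, 0.643, 2.15, 4.35 and 1.72 in the other cells. Of all Rpl3l UMIs, 34.3, 79.7, 91.0, 89.8 and 85.6% lay in fibre-rich cells. In fibre-rich cells Rpl3l made up 70.0% of the UMIs of Rpl3 and Rpl3l together, pooled over libraries. Elsewhere it made up 0.169%.

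The design compares frail with control mice. Over all retained cells the 84 genes held 11.3 and 11.0% of UMIs in the frail libraries and 13.0, 13.4 and 12.5% in the controls. The groups did not overlap, and the means were 11.2% ± 0.21 (SD, n = 2) and 13.0% ± 0.46 (SD, n = 3). The share is a score over genes chosen with earlier results known, so it carries no test. In a sum over all cells, a lower level per cell and fewer cells of a type with a high level cannot be told apart. Malat1, a nuclear RNA, ran at 3.93, 2.84, 1.97, 1.91 and 3.18% and mitochondrial transcripts at 4.07, 4.03, 2.99, 2.99 and 3.47% of UMIs, both with control 3 nearest to the frail libraries. Their part in the difference was not tested. With mitochondrial, Malat1 and fibre gene UMIs left out of the total, the shares were 12.3, 11.8, 13.8, 14.3 and 13.4%.

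No single gene of the set passed the test. In edgeR's quasi-likelihood test over 19919 genes, 0 of 84 ribosomal protein genes and 0 of all genes (0.0%) reached an adjusted p under 0.05, and 2 of the 84 (5.62% of all genes) had an unadjusted p under 0.05. DESeq2 called 1 of the 84, Rpl3l, and 287 of all genes (1.44%). The fitted change was below 0 for 79 of 84 genes, against 49.8% of all genes, with a median of -0.20 on the log2 scale (all genes 0.00). The medians were -0.20 for both subunits. Both frail libraries lay below every control for 47 of 84 genes, against 9.90% of all genes, and above every control for Rpl27 alone of the 84 (9.99% of all genes). The genes of the set vary together, so these counts are not independent observations.

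Rpl3l had the lowest p. It stood at 0.551 and 3.16 CPM in the frail libraries and at 23.0, 40.0 and 11.7 in the controls. The groups did not overlap, and the log2 change was -3.82 ± 0.95 (edgeR adjusted p = 0.622, DESeq2 adjusted p = 0.0157). Within fibre-rich cells, as given above, the frail values of 686 and 709 were not below the control values of 576 to 682, and the frail libraries held 12 and 89 such cells against 336 to 880. Without fibre-rich cells the log2 change was -2.47 (edgeR adjusted p = 0.856). The cells left still held fibre gene UMIs, at 0.0079 and 0.014% in frail and 0.054, 0.152 and 0.047% in control libraries. Over all cells, Rpl3l came to 43.6 and 37.8 per 10000 fibre gene UMIs in frail and 31.5, 27.5 and 32.9 in control libraries. The part of fibre RNA in the Rpl3l change was not tested.

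Rps15, a small-subunit protein at the head of the subunit, stood at 750.4 and 1104 CPM in the frail and at 1659, 1642 and 1103 in the control libraries. Frail 2 and control 3 were level, and the log2 change was -0.70 ± 0.28 (edgeR adjusted p = 0.886). Rplp1 stood at 2657 and 2671 against 3637, 3494 and 3375, without overlap (log2 change -0.42 ± 0.18, edgeR adjusted p = 0.908). Rpl12 (-0.50 ± 0.23), Rps12 (-0.41 ± 0.19) and Rpl39 (-0.38 ± 0.19) had the next smallest p, each with an edgeR adjusted p of 0.912. Rpl27 had the largest fitted rise, at 379.8 and 385 against 296, 288 and 372 CPM (0.25 ± 0.17, edgeR adjusted p = 0.933). Control 3 was again the control closest to the frail pair.

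**Figure D4:**
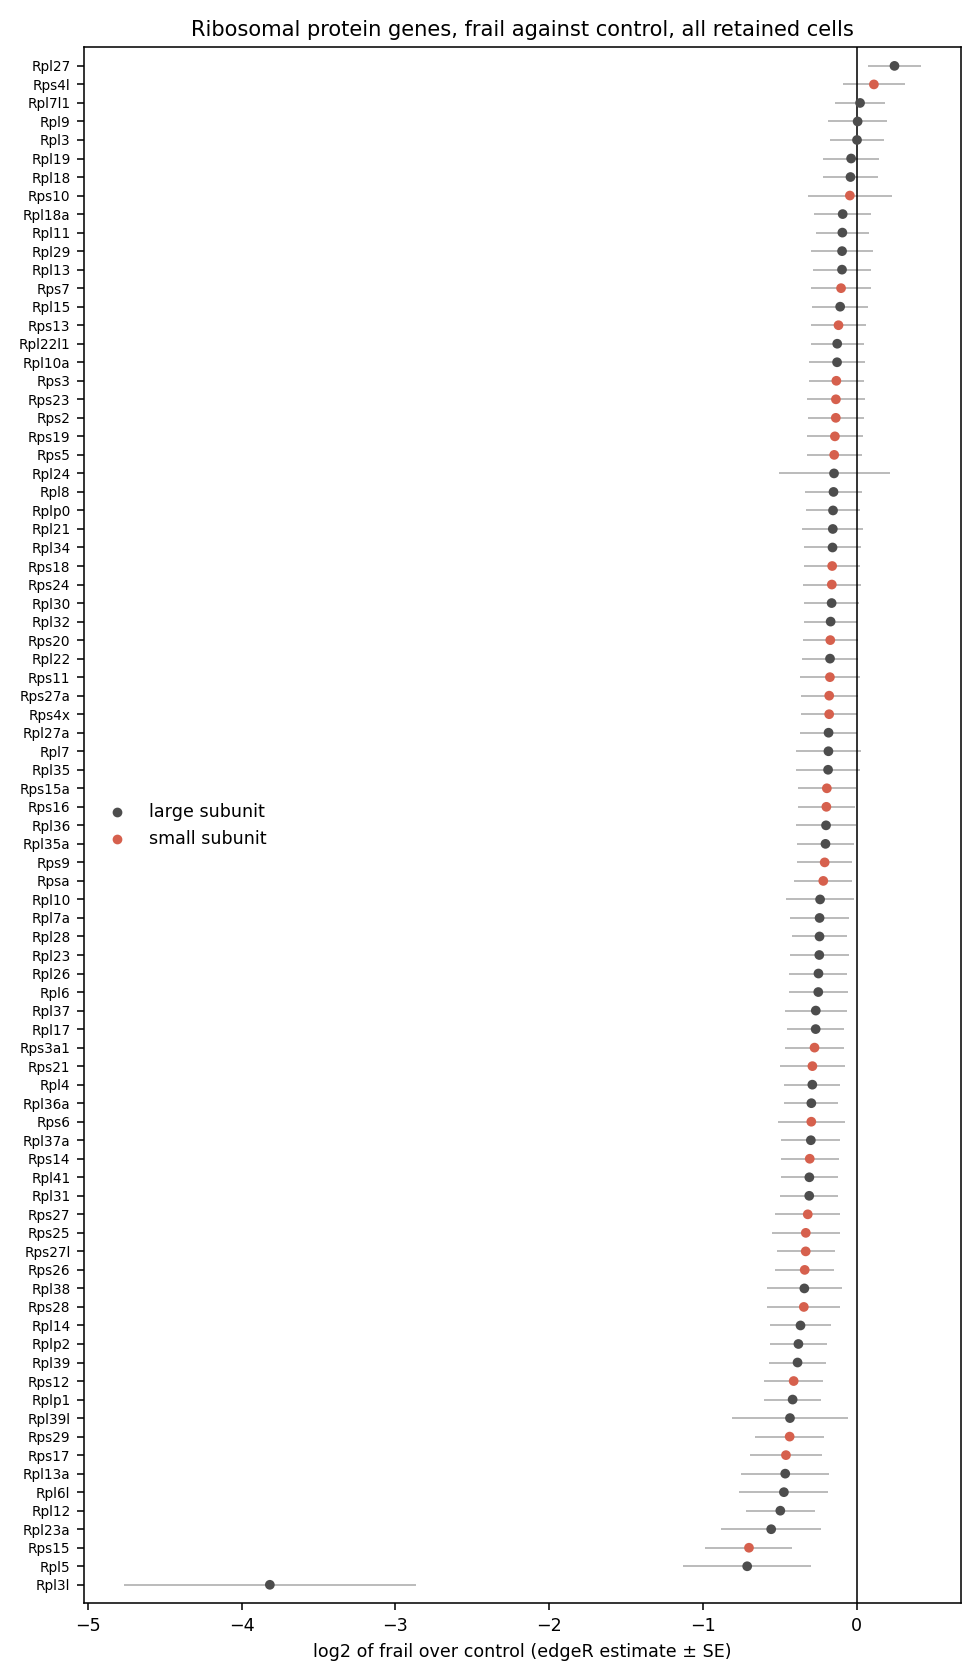
Log2 change of frail over control (horizontal axis, edgeR estimate with its SE as bars) for 83 of the 84 ribosomal protein genes over all retained cells, coloured by subunit. Of all 84 genes 79 have a change below 0 with a median of -0.20, Rpl3l stands apart at -3.82, and none passed the adjusted threshold in edgeR.

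Within lineages, 0 ribosomal protein genes passed the edgeR test in any of the 5 gates that could be fitted. All genes passed in 0.0% (Cdh5), 0.00678% (Pdgfra), 0.0515% (Rgs5), 0.0% (C1qa) and 0.0704% (Pax7) of cases. The Cd3e gate had only 1 frail library with at least 10 cells and is given as values above. Median log2 changes were -0.12 in the Cdh5 gate, -0.19 in the Pdgfra gate, -0.49 in the Rgs5 gate, -0.04 in the C1qa gate and -0.07 in the Pax7 gate, and the medians of all genes were 0.00 to 0.01. Leaving out single libraries moved the Pdgfra median between -0.09 (without control 2) and -0.35 (without control 3), and the Cdh5 median to -0.31 without frail 1. Without frail 2 the medians of the Cdh5 and C1qa gates turned to 0.04 and 0.14. That of the C1qa gate also turned without control 1 (0.04) and control 2 (0.01), and that of the Pax7 gate turned to 0.03 without frail 1 and without control 2. At an unadjusted p under 0.05 stood 2 of 84 genes in the Cdh5 gate (3.30% of all genes), 1 of 84 in the Pdgfra gate (4.47%), 38 of 83 in the Rgs5 gate (6.62%), 0 of 81 in the C1qa gate (3.79%) and 0 of 80 in the Pax7 gate (4.41%).

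In mural cells most genes separated the groups. Both frail libraries lay below every control for 73 of 83 genes in the Rgs5 gate, against 10.7% of all genes. The counts were 9 of 84 in the Cdh5 gate (7.42% of all genes), 13 of 84 in the Pdgfra gate (8.29%), 2 of 81 in the C1qa gate (9.30%) and 8 of 80 in the Pax7 gate (8.23%). The summed share was 6.99 and 6.46% against 8.99, 9.78 and 10.1%. Rps15 there stood at 476 and 643 against 1126, 1130.3 and 966 CPM (log2 change -0.96 ± 0.23, edgeR adjusted p = 0.369). Rpl3l stood at 0 and 2.47 against 37.6, 24.5 and 14.1 (edgeR adjusted p = 0.260). The fibre genes in this gate, given below, were also lower in the frail libraries, and their part in the Rpl3l values was not tested. Rps15 had one of the smallest p of the set in every gate fitted, with log2 changes of -0.68 (Cdh5), -0.64 (Pdgfra), -0.45 (C1qa) and -0.55 (Pax7) elsewhere. None of these passed, and neither did Rpl3l in the Cdh5 (-2.95) and Pdgfra (-2.72) gates, Rpl27 in the C1qa gate (0.52) or Rps29 in the Pax7 gate (-0.33). The gates come from the same 5 libraries, so the Rps15 changes are not repeated observations. In the Cdh5, Pdgfra, C1qa and Pax7 gates Rps15 of control 3 (857, 1029, 1038 and 1769 CPM) lay below that of frail 2 (869, 1273, 1124 and 2386). The groups overlapped there.

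The difference in mural cells changed with how the cells were summarised. The median share per cell was 5.66 and 4.58% in frail and 7.29, 7.65 and 5.83% in control libraries, so control 3 came close to frail 1. Among Rgs5-gated cells of 2000 to 4999 UMIs, which were 339, 314, 219, 264 and 290 cells, the shares were 5.69, 4.68, 7.43, 8.18 and 5.60%, and the groups overlapped. At 500 to 1999 UMIs (47, 59, 50, 74 and 94 cells) they were 9.04, 5.31, 6.50, 8.56 and 7.24%, with frail 1 the highest and frail 2 the lowest. At 5000 to 9999 UMIs they were 7.93, 8.15, 9.29, 11.2 and 11.0%, and at 10000 or more 8.19, 8.71, 10.7, 10.4 and 13.6%, both without overlap. In this gate the frail libraries held 217 and 212 CPM of the 12 fibre genes and the controls 11154, 12866 and 2829, Malat1 stood at 7.06, 6.59, 3.90, 3.53 and 5.69% of UMIs, and keratin genes at 2844 CPM in control 3 against 11.9 to 20.2 elsewhere. The 5 erythrocyte genes stood at 7791, 102, 2617, 1615 and 1689 CPM, highest in frail 1. The part of all these transcripts in the difference between the groups was not tested.

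In fibro-adipogenic cells the shares of control 1 and 2 (15.5 and 16.4%) lay above the frail pair (12.8 and 12.9%) and that of control 3 (12.1%) below it. The groups therefore overlapped. In endothelial cells, macrophages and satellite cells the groups overlapped as well. With a gate of at least 1 UMI both frail libraries lay below every control in the Cdh5 gate (means 9.13 and 10.7%) and in the C1qa gate (11.8 and 13.1%), where the median log2 change went from -0.04 to -0.14. No difference of the frail effect between gates was found for the set: 0 of 84 genes passed the edgeR interaction test, where Rpl7l1 came closest at an adjusted p of 0.993, against 0.0142% of all genes. At the unadjusted 0.05 level the set had 0 genes as well, against 5.22% of all genes. This does not show that the gates respond alike.

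**Figure D5:**
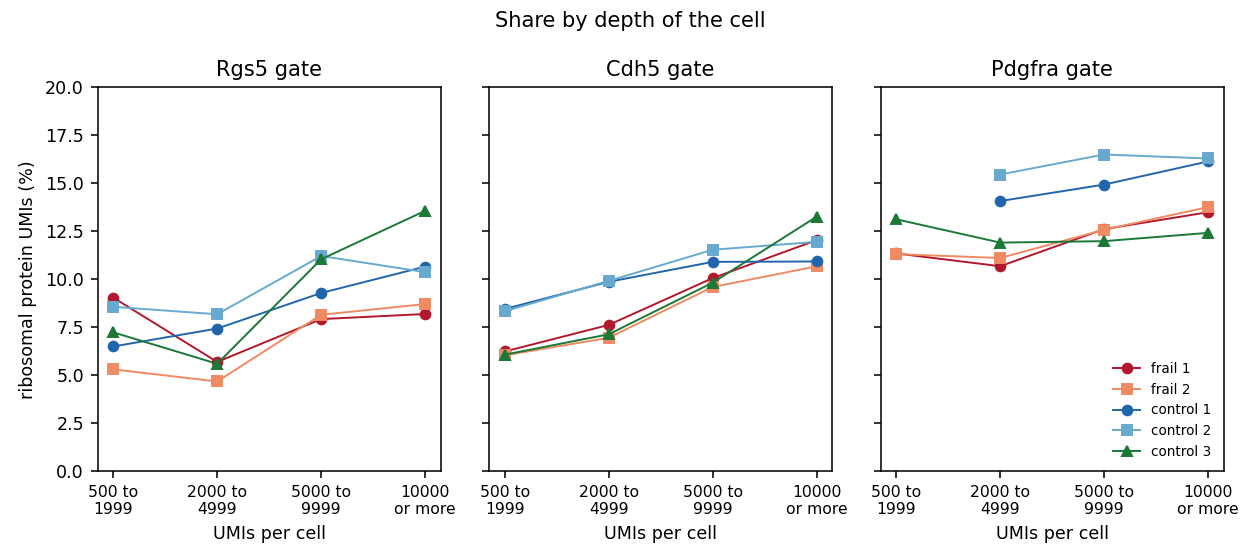
Share of UMIs from the 84 ribosomal protein genes (vertical axis, percent) in cells of 4 ranges of UMIs per cell (horizontal axis) for the Rgs5, Cdh5 and Pdgfra gates, 1 line per library and sums of at least 10 cells only. In the Cdh5 gate the share rises with depth in 5 of 5 libraries. Control 3 lies between the frail libraries in the Cdh5 gate below 10000 UMIs per cell and in the Rgs5 gate below 5000.

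Other genes of the translation system were counted from lists chosen with the set. Rack1, a scaffold on the small subunit outside the symbol rule, stood at 671 and 892 against 1137, 1177 and 917 CPM (edgeR adjusted p = 0.911). It was called higher in the Pax7 gate (1.20 ± 0.13, edgeR adjusted p = 1.32e-08) and lower in the Rgs5 gate (-0.98 ± 0.15, edgeR adjusted p = 3.40e-06). Fau, which carries a small-subunit protein fused to a ubiquitin-like protein, was called higher in the C1qa gate (0.67 ± 0.12, edgeR adjusted p = 3.55e-05).

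Of 19 translation factors with TOP messenger RNAs, 16 were called higher in the Pax7 gate (14.8% of all genes) and 11 lower in the Rgs5 gate (9.89%), with median log2 differences of 0.78 and -0.59. Eef1a1, the factor that delivers transfer RNA to the ribosome, was higher in the Pax7 gate by 1.20 ± 0.11 (edgeR adjusted p = 4.04e-10), and Tpt1 by 1.05 ± 0.11 (edgeR adjusted p = 1.70e-08). Between frail and control 0 of 19 were called, and 18 had a fitted change below 0 (49.8% of all genes), with a median of -0.10.

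Ribosome biogenesis genes were called higher in the Pax7 gate for 18 of 30, with 0 lower (14.8% and 19.0% of all genes, median 0.68), among them Ncl, a nucleolar protein (0.56 ± 0.09, edgeR adjusted p = 6.12e-06). In the Rgs5 gate 2 of 30 were lower, against 9.89% of all genes. Of 77 mitochondrial ribosomal protein genes, 21 were called higher in the Rgs5 gate and 1 lower, against 23.4% and 9.89% of all genes (median 0.33). In the Pax7 gate 9 were higher and 8 lower, against 14.8% and 19.0% (median -0.02). The shares called higher in the Rgs5 gate and either way in the Pax7 gate were thus not far from those of all genes. Genes of mTORC1 and TOP control had a median of -0.19 in the Pax7 gate and 0.12 in the Rgs5 gate, with 2 of 21 higher and 5 lower in the first and 4 higher and 0 lower in the second, also not far from the shares of all genes just given. None of the biogenesis, mTORC1 or mitochondrial ribosome genes was called between frail and control in edgeR over all cells.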

How the data were processed

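The values deposited by the authors are raw UMI counts for each gene in each barcode. Per the file headers they were written by Cell Ranger 7.0.0, and the submitters' processing notes name GRCm38 and Seurat 4.1.2. A barcode was retained with 200 or more genes detected and mitochondrial UMIs of 10% or less, and the highest Scrublet scores (30 components) were removed at 0.4% per 1000 barcodes. UMIs were summed per library, and per library and gate with at least 10 cells. Sums were tested with edgeR 4.0.16 in R 4.3.3 (quasi-likelihood, robust, TMM, filterByExpr), with Benjamini-Hochberg adjustment over all genes tested at 0.05, and with DESeq2 1.42.0 as an alternative. The scripts were tested on simulated data. CPM values are plain scaled shares of all UMIs of a sum, while log2 changes come from the fits. Limits on counts of 0 rest on 3 counts and cover counting error only. The libraries are described as separate mice.

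The members and gene lists were chosen with earlier results of these data known. Named genes were the 6 smallest p in all cells and the 2 smallest in each gate, the largest rise and fall, the 3 largest differences each way per gate among called genes with average log2 CPM of at least 3, the 6 highest and 6 lowest totals, the paralog pairs and the genes next to the UMI limit. A gene that this rule names, and its row in the plots of all genes, is not reported here. Alternatives covered normalization, the low-count filter, single libraries, the mitochondrial limit, doublets, fibre-rich cells, the gate minimum and the replicate number. Gene positions come from GENCODE vM21 and start windows from RefSeq.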

Additional observations from a re-analysis of the deposited data

How the results depend on the processing

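For frail against control over all cells, the count of called genes went from 0 to 1 with DESeq2 (1.44% of all genes) and to 1 with the replicate block. In the gates it rose without a low-count filter to 1 (Cdh5), 1 (Pdgfra), 4 (Rgs5) and 1 (Pax7). With the replicate block it rose to 3 (Pdgfra) and 1 (Rgs5), and without control 3 to 1 in the Rgs5 gate. Apart from DESeq2, the shares of all genes called under the alternatives are not given here. These counts, and those of the C1qa gate below, therefore cannot be set against them. The block fit rests on replicate numbers that the labels do not tie to any pairing. Control 3 alone has the number 3, so the block takes it up and the frail change rests on the other libraries. Same-numbered libraries had correlations of -0.07 (1) and 0.16 (2) of their deviations from the group means over 14374 genes. With 2 frail libraries the frail deviations mirror each other, so these correlations cannot decide on a pairing. As no label pairs the mice, the numbers were not taken to pair them. The median change over all cells was -0.27 with the block and also -0.27 without control 3. It ran from -0.27 to -0.16 when single libraries were left out, and the share differed by -2.04 to -1.58 percentage points. Leaving out single libraries gave 0 to 1 calls in the Rgs5 gate, 49 to 67 in the Cdh5 gate and 7 to 71 in the Cd3e gate. The C1qa gate had 4 calls, 15 with total UMIs and no factor and 12 without a low-count filter. The Rps4l difference of the C1qa gate, -0.86, ran from -0.97 (without frail 1) to 0.41 (without control 3). Of 314 values for single named genes under alternatives, 304 kept their direction and side of the threshold. The interaction could not be fitted without frail 2. The cause of these changes was not tested.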

Other observations

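The make-up of the set differed between libraries in a way that ran across the groups. Each gene's UMIs were divided by all ribosomal protein UMIs of its library, for the 79 genes with at least 50000 UMIs, and the log2 values were compared with the gene's mean over libraries. The median range over the 5 libraries was 0.24. The widest ranges were those of Rpl5 (1.25), Rpl24 (1.07), Rps15 (0.95) and Rpl23a (0.92). Rpl5, a large-subunit protein that binds the 5S ribosomal RNA, deviated by -0.64, 0.15, 0.60, 0.41 and -0.52 in frail 1, frail 2 and control 1 to 3. Frail 1 and control 3 were thus the low pair and the other 3 libraries the high ones.

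The same pair of libraries was lowest for Rpl5 and Rpl23a in each of the 6 gates. In the Pax7 gate Rpl5 made up 0.230, 0.472, 0.626, 0.699 and 0.252% of ribosomal protein UMIs, and in the Cdh5 gate 0.269, 0.406, 0.531, 0.466 and 0.276%. Rpl27 did not follow this pair of libraries. It deviated by 0.26 and 0.32 in the frail libraries and by -0.30, -0.38 and 0.09 in the controls. Both frail libraries thus lay above every control for Rpl27. These genes were chosen after their values were seen, and no test was made.

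Rows named as pseudogenes of ribosomal protein genes numbered 322, of which 246 held a UMI, 107976 in all. They came to 283, 297, 354, 341 and 334 CPM, or 0.263% of the UMIs of the 84 genes.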
